A study of Mus musculus with 6 samples.

Results

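The tumour necrosis factor (TNF) superfamily was described here in mouse bone marrow-derived macrophages, cells that marrow precursors form in a dish. Its members were the rows of the deposited expression table whose gene name begins with Tnfsf or Tnfrsf, together with Tnf, Lta, Ltb, Ltbr, Fas, Fasl, Cd40, Cd27, Cd70, Eda2r and Ngfr. This gave 43 of 29957 genes, of which 16 were ligands, 25 were receptors and 2 were further transcripts of the Tnfsf12 and Tnfsf13 locus (Tnfsfm13, which spans both genes, and the antisense RNA Tnfsf13os). The treated group, LPS+PA, was 3 libraries of wild-type macrophages given lipopolysaccharide (LPS, an outer membrane molecule of Gram-negative bacteria that acts through TLR4) and then PA-BSA, a free fatty acid preparation used in place of ATP to activate the Nlrp3 inflammasome. The other group was 3 control libraries of wild-type macrophages. No dose, time or age is labelled, and whether the control was given LPS or BSA is not stated. What LPS did and what PA-BSA did cannot be told apart, because both were given to the same cells. Separate animals or cultures are not named for the 3 libraries of each group, so p-values measure the spread between these libraries, which may be technical.

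Ligands of this family are mostly membrane proteins that act as trimers, and some, TNF itself first among them, are also cut from the cell surface and act at a distance. They bind receptors of a matching family. Receptors with a death domain can start cell death through adaptors such as FADD, other receptors recruit TRAF adaptors and turn on NF-kB, and decoy receptors bind a ligand without passing on a signal. Macrophages are a main source of TNF after contact with bacterial products.

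Levels are in FPKM, the number of fragments scaled to transcript length and to the library's total. Log2 fold changes are LPS+PA minus control on log2(FPKM + 1), a scale that shrinks changes at low levels, and a gene was said to rise or fall where limma gave a Benjamini-Hochberg adjusted p under 0.05 over the 11364 genes that reached 1 FPKM in 3 or more of the 6 libraries. By an estimate from the steps of low FPKM values, the libraries held about 13.9 to 21.2 M (mega) fragments. Fragment numbers below rest on this estimate. LPS+PA 1 and control 3 stood apart from the other 4 libraries on the first principal component of the deviations from the group means, which held 68.2% of that variance. Per 10 percentage points of transcript GC content the deviations had slopes of -0.192 and -0.295 log2 units in these 2 libraries and of 0.0688 to 0.168 in the other 4. The macrophage marker Adgre1 averaged 1417 ± 189 FPKM in LPS+PA libraries and 1400 ± 134 FPKM in control libraries (SD, n = 3 each). Of 8 T and NK cell markers in the table, Cd4 alone reached 1 FPKM, at 1.13 ± 0.200 FPKM in LPS+PA libraries and 6.76 ± 0.518 FPKM in control libraries (SD, n = 3 each). The T cell marker genes Cd3d and Cd3g stayed at or under 0.0844 FPKM in all 6 libraries, and Ms4a1 of B cells at or under 0.0182 FPKM. The 8 stromal and endothelial markers summed to 36.0 to 45.1 FPKM in LPS+PA libraries and 92.4 to 176 FPKM in control libraries. Of the 7 tested, 6 fell, collagen genes among them, while Dcn rose, with 23.3 ± 4.08 FPKM in LPS+PA libraries and 4.91 ± 1.32 FPKM in control libraries. Whether such cells contribute to a value below was not tested. In bulk RNA, fewer cells of a type and less RNA per cell cannot be told apart.

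The windows of 250 bases before to 50 bases after the transcript start are printed for 4 members, from RefSeq on GRCm38.p6 (mm10), 5′ to 3′ on the gene's strand. Tnf and Ltb were chosen as neighbours on chromosome 17 that moved in opposite directions, and Tnfrsf9 and Tnfrsf8 as receptors that rose and hold a match to the consensus of the kappaB motif, the site that NF-kB binds. Capitals mark such matches, on either strand. Tnf lies at chr17:35201958-35202257 on the minus strand, Ltb at chr17:35194257-35194556 on the plus strand, Tnfrsf9 (1 of its 2 annotated starts) at chr4:150927749-150928048 on the plus strand, and Tnfrsf8 at chr4:145315115-145315414 on the minus strand.
Tnf: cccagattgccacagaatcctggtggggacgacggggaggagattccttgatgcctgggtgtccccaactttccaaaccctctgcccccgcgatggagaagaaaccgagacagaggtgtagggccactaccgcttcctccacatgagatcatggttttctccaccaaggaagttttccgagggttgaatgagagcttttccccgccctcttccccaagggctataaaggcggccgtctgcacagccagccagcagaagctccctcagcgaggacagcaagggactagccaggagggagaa
Ltb: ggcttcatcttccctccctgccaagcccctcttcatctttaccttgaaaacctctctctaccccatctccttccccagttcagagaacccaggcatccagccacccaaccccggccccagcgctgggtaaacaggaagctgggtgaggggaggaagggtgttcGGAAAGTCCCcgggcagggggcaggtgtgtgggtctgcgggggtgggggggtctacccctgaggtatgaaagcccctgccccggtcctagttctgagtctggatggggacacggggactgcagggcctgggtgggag
Tnfrsf9: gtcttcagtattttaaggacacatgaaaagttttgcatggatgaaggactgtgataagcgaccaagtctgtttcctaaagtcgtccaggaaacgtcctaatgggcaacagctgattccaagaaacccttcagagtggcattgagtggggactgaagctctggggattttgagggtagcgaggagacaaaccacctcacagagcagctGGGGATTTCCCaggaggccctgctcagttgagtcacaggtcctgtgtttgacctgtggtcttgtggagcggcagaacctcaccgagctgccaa
Tnfrsf8: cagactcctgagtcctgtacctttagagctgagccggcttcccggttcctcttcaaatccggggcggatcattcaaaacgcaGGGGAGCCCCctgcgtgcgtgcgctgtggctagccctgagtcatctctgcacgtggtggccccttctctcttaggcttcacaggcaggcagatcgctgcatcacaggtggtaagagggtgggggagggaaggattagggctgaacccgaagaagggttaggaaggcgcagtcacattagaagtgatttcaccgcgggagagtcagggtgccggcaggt
Of 43 members, 33 had a promoter window in the RefSeq table. The kappaB consensus, 10 bases long and searched on both strands, was found in 2 of 8 members that rose, in 1 of 7 that fell (Ltb) and in 4.51% of all 32851 windows. The match in Ltb begins 87 bases before the start and that in Tnfrsf8 168 bases before it, and Tnfrsf9 holds 2 overlapping matches that begin 43 and 42 bases before the start shown. An interferon-response motif, GAAANNGAAA, searched on both strands, was in none of the 4 windows printed. It was found in Tnfrsf1b among the members that rose, in none of the 7 that fell and in 3.44% of all windows. For both motifs a member was counted where any of its windows matched, while the shares are per window. These are unlike measures, and enrichment was not tested. Tnfrsf9 and Tnfrsf8 reached 1 FPKM in the treated group alone. The Tnf window holds no match to either motif, which says only that these letters are not in this window.

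Of the 43 members, 26 passed the filter, 4 reached 1 FPKM in only 1 or 2 libraries, and 13 stayed under 1 FPKM in every library. Among the 26, 13 rose, 9 fell and 4 did not pass the test, and over all 11364 genes 55.1% were called, 22.2% as higher and 32.9% as lower. In 13 members all LPS+PA libraries lay above all control libraries and in 9 they lay below, beside 26.3% above and 36.9% below over all genes tested. Of the 26 members, 8 reached 1 FPKM in all libraries of 1 group only. Apart from Tnfsfm13, which also reached it in LPS+PA 2, these had to differ, so the count does not speak for the family. Among the 18 members at 1 FPKM or more in all 6 libraries, 9 rose, 5 fell and 4 did not pass. The ligands split into 5 that rose and 2 that fell of 7 tested, the receptors into 8 that rose, 6 that fell and 4 that did not pass of 18 tested, and Tnfsfm13 fell. The median log2 fold change was 1.76 over the 7 tested ligands and 0.17 over the 18 tested receptors, beside -0.11 over all genes tested. Of these, 2 ligands and 2 receptors passed the filter through the treated group alone, and 1 ligand and 2 receptors through the control group alone. The filter set their directions, which enter these splits and medians. The 4 ligands at 1 FPKM or more in all 6 libraries split into 3 that rose and 1 that fell. The 14 such receptors split into 6 that rose, 4 that fell and 4 that did not pass. Without a filter, all 43 members entered the fit: of 16 ligands 8 were higher and 3 lower, of 25 receptors 8 were higher and 4 lower, and over all 29957 genes 9.02% were higher and 13.8% lower. The authors' deposited table marked 24 of the 43 members as significant, 15 higher and 9 lower, and did not mark Tnfrsf1a or Tnfrsf11a. The share of all genes that it marked was not counted here, so this number does not speak for the family.

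Tnf was the most abundant ligand in both groups and rose the most among the tested ligands on log2(FPKM + 1). That scale shrinks changes at low levels, and in the authors' table the log2 fold change was larger for Lta (4.14) than for Tnf (3.53). It stood at 194, 275 and 265 FPKM in LPS+PA 1 to 3, against 23.1, 22.1 and 18.2 FPKM in control 1 to 3. The groups did not overlap, as was so for 63.2% of all genes tested, and LPS+PA 1 was the lowest of the treated libraries. The log2 fold change was 3.46 (SE 0.159, limma adjusted p = 1.19e-05). Tnf made up 87.6%, 90.1% and 89.6% of the summed ligand FPKM in LPS+PA 1 to 3, against 50.3%, 47.3% and 55.9% in control 1 to 3. The other 15 ligands together came to 29.5 ± 1.79 FPKM in LPS+PA libraries and 20.6 ± 5.49 FPKM in control libraries (SD, n = 3 each). The ligand sum with Tnf was 274 ± 45.6 FPKM in LPS+PA libraries and 41.8 ± 7.97 FPKM in control libraries.

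Further ligands that rose act on T cells or induce cell death. Tnfsf4, the OX40 ligand, stood at 7.95, 8.11 and 8.72 FPKM in LPS+PA 1 to 3, against 1.12, 1.36 and 1.25 FPKM in control 1 to 3 (log2 fold change 2.05, SE 0.0835, limma adjusted p = 7.46e-06). Tnfsf9, the 4-1BB ligand, stood at 6.53, 7.66 and 7.45 FPKM in LPS+PA libraries, against 1.58, 1.72 and 1.02 FPKM in control libraries (log2 fold change 1.76, SE 0.134, limma adjusted p = 8.53e-05). Both were separated by group with no overlap, and both were above 1 FPKM in every library. Tnfsf15, known as TL1A, reached 4.80, 4.82 and 4.53 FPKM in LPS+PA libraries, against 0.621, 0.659 and 0.581 FPKM in control libraries (log2 fold change 1.82, SE 0.0744, limma adjusted p = 7.51e-06). Its libraries were close together within each group and far apart between groups. Tnfsf10, the death ligand TRAIL, stood at 2.17, 2.33 and 2.47 FPKM in LPS+PA libraries, against 0.300, 0.337 and 0.396 FPKM in control libraries (log2 fold change 1.30, SE 0.0785, limma adjusted p = 3.28e-05). Tnfsf15 and Tnfsf10 passed the filter through the treated group alone.

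**Figure D1:**
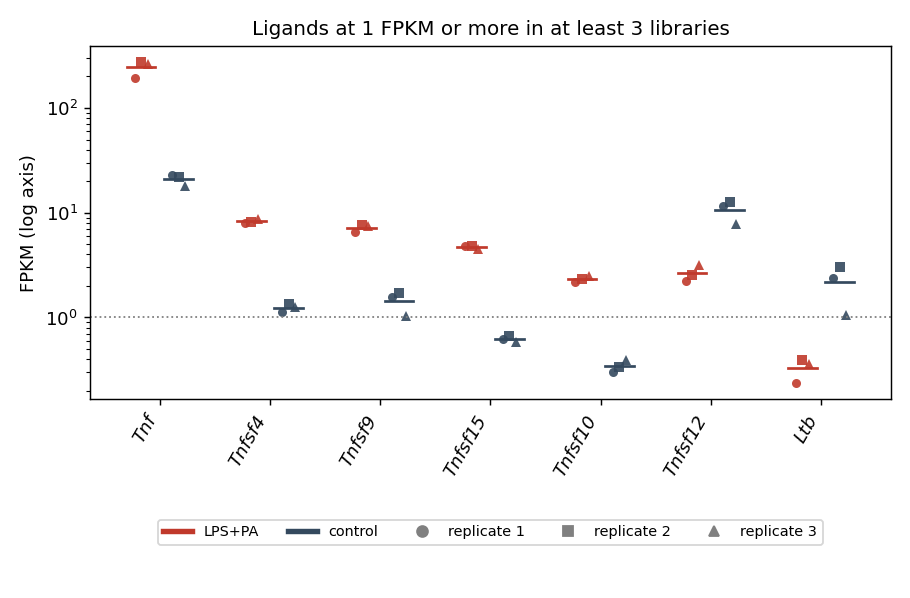
FPKM of the 7 tested ligands in each library on a log axis, LPS+PA left of control for each gene, with symbols for replicates 1 to 3, a bar at the mean and a dotted line at 1 FPKM. Tnf, Tnfsf4, Tnfsf9, Tnfsf15 and Tnfsf10 lie higher in all LPS+PA libraries, and Tnfsf12 and Ltb lie lower in all of them.

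Tnfsf12 and Ltb fell. Tnfsf12 encodes TWEAK, a ligand linked to tissue repair, and stood at 2.22, 2.52 and 3.16 FPKM in LPS+PA 1 to 3, against 11.6, 12.7 and 7.88 FPKM in control 1 to 3 (log2 fold change -1.67, SE 0.185, limma adjusted p = 0.000445). Its neighbour Tnfsf13 encodes APRIL, a survival factor of plasma cells. It stood at 0.116, 0.264 and 0.329 FPKM in LPS+PA libraries, against 3.36, 3.53 and 0.896 FPKM in control libraries, so that it reached 1 FPKM only in controls 1 and 2. Tnfsfm13, the transcript unit over both genes, stood at 0.473, 1.02 and 0.948 FPKM in LPS+PA libraries, against 4.52, 3.69 and 3.89 FPKM in control libraries (log2 fold change -1.48, SE 0.144, limma adjusted p = 0.000239). Tnfsfm13 reached 1 FPKM in all control libraries and in LPS+PA 2, and its groups did not overlap. Tnfsf12, above 1 FPKM in every library, did not overlap between groups either. They lie on chromosome 11 between 69682577 and 69696098 (mm10, minus strand), where Tnfsfm13 overlaps both of the others, so how fragments were split between them is uncertain. Their summed level was 3.69 ± 0.821 FPKM in LPS+PA libraries and 17.3 ± 4.06 FPKM in control libraries (SD, n = 3 each). The antisense Tnfsf13os, across the same bases, ranged from 0.0124 to 0.328 FPKM in LPS+PA libraries and from 0.816 to 1.23 FPKM in control libraries, and no source used here says whether counting used strand, so reads of the opposite strands cannot be told apart. Without the filter Tnfsf13 (log2 fold change -1.44, SE 0.358, limma adjusted p = 0.0377) and Tnfsf13os (-0.74, SE 0.140, limma adjusted p = 0.0153) were lower in LPS+PA. In that fit 22.9% of genes were called, and the highest library of Tnfsf13os held about 17 fragments. With the GC and length dependence of each library taken out, the log2 fold change was -1.05 for Tnfsf12 and -0.97 for Tnfsfm13.

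Lta, Tnf and Ltb are neighbours within 10.9 kb of chromosome 17 (35194439 to 35205351, mm10), in the class III region of the major histocompatibility complex, and did not move together. Ltb encodes lymphotoxin beta, which anchors lymphotoxin to the membrane. It stood at 0.235, 0.392 and 0.357 FPKM in LPS+PA 1 to 3, against 2.40, 3.01 and 1.06 FPKM in control 1 to 3. It passed the filter through the control group alone, so its groups had to differ, and control 3 was much lower than the other controls. The log2 fold change was -1.20 (SE 0.240, limma adjusted p = 0.00612), and -0.35 (limma adjusted p = 0.0428) with the GC and length dependence taken out. Within the 4 libraries other than LPS+PA 1 and control 3 the difference was -1.43, and between those 2 libraries it was -0.74. Lta, lymphotoxin alpha, which shares the receptors of TNF, was low but on the other side: 0.487, 0.849 and 0.641 FPKM in LPS+PA libraries, against 0.0767, 0 and 0.0357 FPKM in control libraries. Without the filter Lta was higher in LPS+PA (log2 fold change 0.67, SE 0.0903, limma adjusted p = 0.00443), a fit in which 22.9% of genes were called. Its highest library held about 16.8 fragments, so its level rests on few.

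The remaining ligands stayed near or under 1 FPKM. Tnfsf11, or RANKL, the ligand that drives osteoclast formation, stood at 1.38, 1.35 and 0.704 FPKM in LPS+PA libraries, against 0.180, 0 and 0.194 FPKM in control libraries. It reached 1 FPKM in LPS+PA 1 and 2 only. Tnfsf18, the GITR ligand, ranged from 0.240 to 0.355 FPKM in LPS+PA libraries and from 0 to 0.106 FPKM in control libraries. Without the filter both were higher in LPS+PA, by 0.92 (SE 0.163, limma adjusted p = 0.0120) for Tnfsf11 and 0.30 (SE 0.0532, limma adjusted p = 0.0122) for Tnfsf18 on the log2 scale. In that fit 22.9% of genes were called, and the highest library of Tnfsf18 held about 12.5 fragments. Tnfsf13b, the B cell survival factor BAFF, ranged from 0.423 to 0.448 FPKM in LPS+PA libraries and from 0.339 to 0.479 FPKM in control libraries. The groups of Tnfsf13b overlapped, as did those of Tnfsf14 (LIGHT), Tnfsf8 (the CD30 ligand), Cd70 and Fasl. Tnfsf14 reached at most 0.959 FPKM in LPS+PA libraries and 0.799 FPKM in control libraries, and Tnfsf8 at most 0.602 FPKM in LPS+PA libraries and 0.379 FPKM in control libraries. Fasl, the ligand of Fas, was listed above 0 only in LPS+PA 2, at 0.0360 FPKM, and Cd70 did not exceed 0.0388 FPKM in LPS+PA libraries or 0.0464 FPKM in control libraries.

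Among receptors, both receptors of TNF were abundant, and Tnfrsf1b was by far the higher. Tnfrsf1b encodes TNFR2, which has no death domain and binds TRAF2. It stood at 456, 494 and 477 FPKM in LPS+PA 1 to 3, against 207, 201 and 198 FPKM in control 1 to 3, with each group tight and no overlap (log2 fold change 1.23, SE 0.0722, limma adjusted p = 2.94e-05). Tnfrsf1a encodes TNFR1, the receptor with a death domain through which TNF drives most of its inflammatory and cytotoxic actions. It stood at 37.2, 41.4 and 42.5 FPKM in LPS+PA libraries, against 46.9, 50.9 and 46.3 FPKM in control libraries (log2 fold change -0.25, SE 0.0836, limma adjusted p = 0.0440). Its groups did not overlap, but its fall was small. It did not pass without the filter, without a variance trend, or without any 1 of LPS+PA 1, LPS+PA 2, LPS+PA 3, control 1 or control 2 (-0.28 to -0.19 over fits that each omit 1 of the 6 libraries), and it turned to 0.21 (limma adjusted p = 0.147) with the GC and length dependence taken out. Within each library the level of Tnfrsf1b was 12.2, 11.9 and 11.2 times that of Tnfrsf1a in LPS+PA 1 to 3, and 4.42, 3.95 and 4.27 times in control 1 to 3. Tnfrsf1b made up 70.9 ± 0.471% of the summed receptor FPKM in LPS+PA libraries and 56.5 ± 0.878% in control libraries (SD, n = 3 each).

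**Figure D2:**
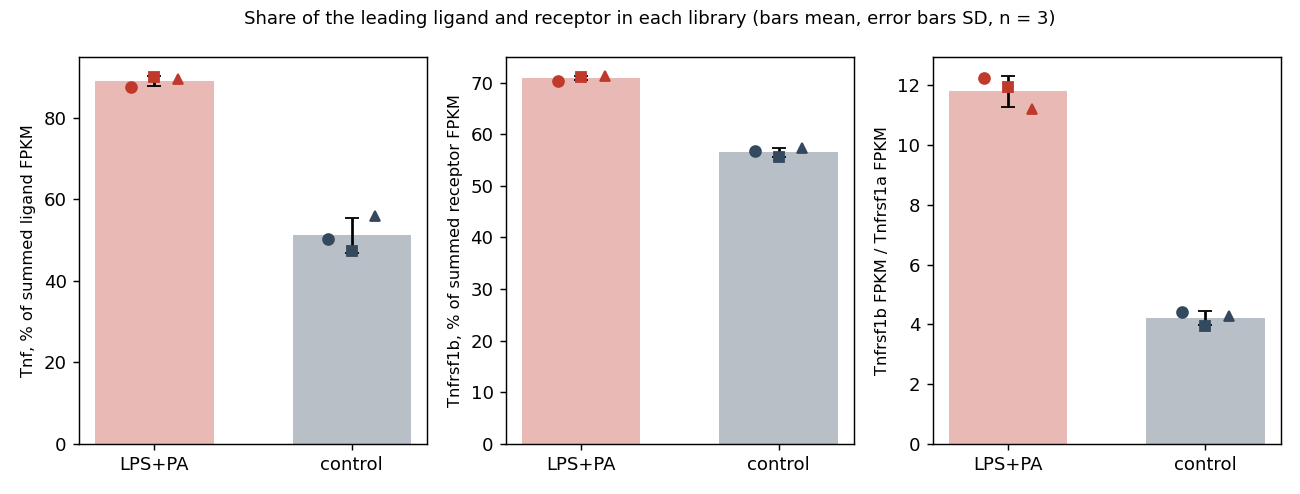
Share of Tnf in the summed FPKM of 16 ligands (left), share of Tnfrsf1b in the summed FPKM of 25 receptors (middle) and ratio of Tnfrsf1b to Tnfrsf1a FPKM (right), with bars at the mean, error bars of 1 SD (n = 3) and points for each library. The LPS+PA libraries lie above the control libraries in all 3 panels.

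Of 10 tested receptors that bind TRAF adaptors without a death domain, 4 rose (Tnfrsf1b, Cd40, Tnfrsf9 and Tnfrsf8), 3 fell and 3 did not pass. Over all genes tested 22.2% were higher and 32.9% lower. The filter set the directions of Tnfrsf9, Tnfrsf8 and Eda2r, so the count does not speak for the class. Cd40, through which T cells activate macrophages and dendritic cells, stood at 11.3, 17.8 and 16.2 FPKM in LPS+PA 1 to 3, against 2.28, 1.95 and 1.11 FPKM in control 1 to 3 (log2 fold change 2.54, SE 0.219, limma adjusted p = 0.000147). LPS+PA 1 and control 3 were the lowest of their groups, and the difference was 2.53 in the other 4 libraries and 2.54 between these 2. Tnfrsf9, or 4-1BB, stood at 6.54, 5.34 and 4.33 FPKM in LPS+PA libraries, against 0.269, 0.0888 and 0.473 FPKM in control libraries (log2 fold change 2.32, SE 0.165, limma adjusted p = 6.45e-05). Tnfrsf8, or CD30, stood at 2.16, 2.68 and 2.18 FPKM in LPS+PA libraries, against 0.683, 0.711 and 0.627 FPKM in control libraries (log2 fold change 0.99, SE 0.0907, limma adjusted p = 0.000185). None of the 3 overlapped between groups, and Tnfrsf9 and Tnfrsf8 passed the filter through the treated group alone. Tnfrsf9 and its ligand Tnfsf9 both rose.

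Death receptors moved in different directions. Fas stood at 18.5, 17.2 and 15.3 FPKM in LPS+PA libraries, against 8.00, 7.25 and 9.35 FPKM in control libraries (log2 fold change 0.97, SE 0.115, limma adjusted p = 0.000603), without overlap. Tnfrsf21, or death receptor 6, fell, with 3.15, 3.57 and 3.44 FPKM in LPS+PA libraries, against 7.01, 7.58 and 6.47 FPKM in control libraries (log2 fold change -0.87, SE 0.0891, limma adjusted p = 0.000311). Its value was -0.52 with the GC and length dependence taken out, and still past the threshold. Tnfrsf10b, the mouse receptor for TRAIL that carries a death domain, stood at 2.44, 2.49 and 2.18 FPKM in LPS+PA libraries, against 2.15, 2.45 and 2.46 FPKM in control libraries, and the groups overlapped (log2 fold change 0.01, SE 0.0845, limma adjusted p = 0.950).

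Tnfrsf22, Tnfrsf23 and Tnfrsf26 lie side by side within 78.2 kb of chromosome 7 (143607659 to 143685872, mm10, all on the minus strand) and all rose. Tnfrsf22 and Tnfrsf23 encode receptors that bind TRAIL in the mouse without a death domain. Tnfrsf23 stood at 24.5, 21.7 and 22.7 FPKM in LPS+PA 1 to 3, against 8.94, 9.43 and 11.1 FPKM in control 1 to 3 (log2 fold change 1.15, SE 0.0998, limma adjusted p = 0.000147). Tnfrsf26 stood at 49.9, 40.5 and 38.9 FPKM in LPS+PA libraries, against 15.9, 15.3 and 20.7 FPKM in control libraries (log2 fold change 1.27, SE 0.147, limma adjusted p = 0.000538). Tnfrsf22 stood at 5.43, 4.88 and 5.35 FPKM in LPS+PA libraries, against 2.64, 1.93 and 2.93 FPKM in control libraries (log2 fold change 0.84, SE 0.126, limma adjusted p = 0.00177). LPS+PA 1 was the highest treated library and control 3 the highest control for each of them, and no groups overlapped. The genes are close relatives and may share fragments, so their separate levels are uncertain. Their sum was 71.3 ± 7.40 FPKM in LPS+PA libraries and 29.6 ± 4.43 FPKM in control libraries (SD, n = 3 each). Beside the ligand Tnfsf10, which rose, the signalling receptor Tnfrsf10b thus had a log2 fold change of 0.01, while Tnfrsf22 and Tnfrsf23 rose.

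Tnfrsf11a, Tnfrsf11b, Tnfrsf13b and Eda2r fell. Tnfrsf11a encodes RANK, the receptor of RANKL on osteoclast precursors, and stood at 6.93, 7.36 and 5.77 FPKM in LPS+PA libraries, against 8.55, 8.22 and 9.18 FPKM in control libraries (log2 fold change -0.33, SE 0.103, limma adjusted p = 0.0322). No overlap was seen, but the fall did not pass the test without any 1 library other than LPS+PA 2 (-0.40 to -0.25 over fits that each omit 1 of the 6 libraries), without both LPS+PA 1 and control 3 (-0.32), or after quantile normalization (-0.21). Tnfrsf11b, osteoprotegerin, the soluble decoy of RANKL, stood at 0.675, 0.575 and 0.685 FPKM in LPS+PA libraries, against 1.52, 1.92 and 2.12 FPKM in control libraries (log2 fold change -0.79, SE 0.102, limma adjusted p = 0.000909). Osteoprotegerin is known mainly from stromal cells. Of their markers, Col1a1 stood at 5.26 ± 1.13 FPKM in LPS+PA libraries and 55.3 ± 20.7 FPKM in control libraries (SD, n = 3 each), while Dcn went the other way, and the part of such cells in the result was not tested. Tnfrsf13b, or TACI, a receptor of BAFF and APRIL, stood at 3.34, 2.88 and 2.94 FPKM in LPS+PA libraries, against 7.77, 8.26 and 6.95 FPKM in control libraries (log2 fold change -1.09, SE 0.0942, limma adjusted p = 0.000146, and -0.61 with the GC and length dependence taken out). Of 5 B cell markers in the table only Cd79b reached 1 FPKM, at 1.09 ± 0.101 FPKM in LPS+PA libraries and 9.48 ± 0.903 FPKM in control libraries (SD, n = 3 each), while Ms4a1 was at 0 in all 3 control libraries. These 5 summed to 1.28 to 1.47 FPKM in LPS+PA libraries and 9.46 to 11.1 FPKM in control libraries, and the part of such cells in the fall of Tnfrsf13b was not tested. Eda2r, a receptor of the ectodysplasin isoform A2, stood at 0.592, 0.569 and 0.396 FPKM in LPS+PA libraries, against 1.96, 1.69 and 2.35 FPKM in control libraries (log2 fold change -0.98, SE 0.110, limma adjusted p = 0.000483). Tnfrsf11b and Eda2r passed the filter through the control group alone.

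Ltbr, Tnfrsf14 and Tnfrsf12a did not pass the test, and their values depended on which libraries or scaling entered the fit. Ltbr, the receptor of lymphotoxin and LIGHT, stood at 5.19, 10.3 and 11.3 FPKM in LPS+PA 1 to 3, against 20.9, 19.7 and 9.09 FPKM in control 1 to 3 (log2 fold change -0.80, SE 0.378, limma adjusted p = 0.113). Control 3 lay within the range of the treated libraries. With a term for the 2 sets of libraries the value was the same with a smaller error (SE 0.0628, limma adjusted p = 0.000184), and without LPS+PA 1 and control 3 it was -0.85 (limma adjusted p = 0.000533). Leaving out 1 library at a time gave -1.16 (limma adjusted p = 0.0141) without control 3 and -0.49 (limma adjusted p = 0.294) without LPS+PA 1, with the other 4 fits between these. With the GC and length dependence taken out it was -0.23 (limma adjusted p = 0.384). Tnfrsf14, or HVEM, which binds LIGHT, stood at 11.5, 16.0 and 14.7 FPKM in LPS+PA libraries, against 19.1, 19.6 and 13.4 FPKM in control libraries (log2 fold change -0.28, SE 0.179, limma adjusted p = 0.219). Without LPS+PA 1 and control 3 it was -0.32 (limma adjusted p = 0.0104), without control 3 alone -0.45 (limma adjusted p = 0.0321), without LPS+PA 1 alone -0.15 (limma adjusted p = 0.506), and with the GC and length dependence taken out 0.07 (limma adjusted p = 0.450). Tnfrsf12a, or Fn14, the receptor of TWEAK, stood at 1.55, 3.35 and 2.19 FPKM in LPS+PA libraries, against 1.72, 1.85 and 1.24 FPKM in control libraries (log2 fold change 0.34, SE 0.205, limma adjusted p = 0.198). It held at most about 37 fragments in a library. Without LPS+PA 2 the value was 0.14 (limma adjusted p = 0.511) and without LPS+PA 1 it was 0.52 (limma adjusted p = 0.0613). It passed after quantile normalization (0.56, limma adjusted p = 0.0428) and with the GC and length dependence taken out (0.89, limma adjusted p = 0.00246).

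The other receptors were scarcely detected. Ngfr, the p75 neurotrophin receptor, reached 1.03 FPKM in LPS+PA 2, while it stood at 0.170 and 0.0207 FPKM in the other two treated libraries and between 0.199 and 0.230 FPKM in control libraries. Tnfrsf18, or GITR, ranged from 0.176 to 0.337 FPKM in LPS+PA libraries and from 0.512 to 0.857 FPKM in control libraries, without overlap, but its highest library held about 15.7 fragments. Tnfrsf4, or OX40, the receptor of Tnfsf4, ranged from 0.213 to 0.542 FPKM in LPS+PA libraries and from 0.195 to 0.542 FPKM in control libraries. Cd27, Tnfrsf17 (BCMA), Tnfrsf19 (TROY) and Tnfrsf25 (the receptor of TL1A) did not exceed 0.224 FPKM in any library, and their groups overlapped. Tnfrsf17 was listed at 0 in all 3 LPS+PA libraries, and at up to 0.142 FPKM in control libraries.

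**Figure D3:**
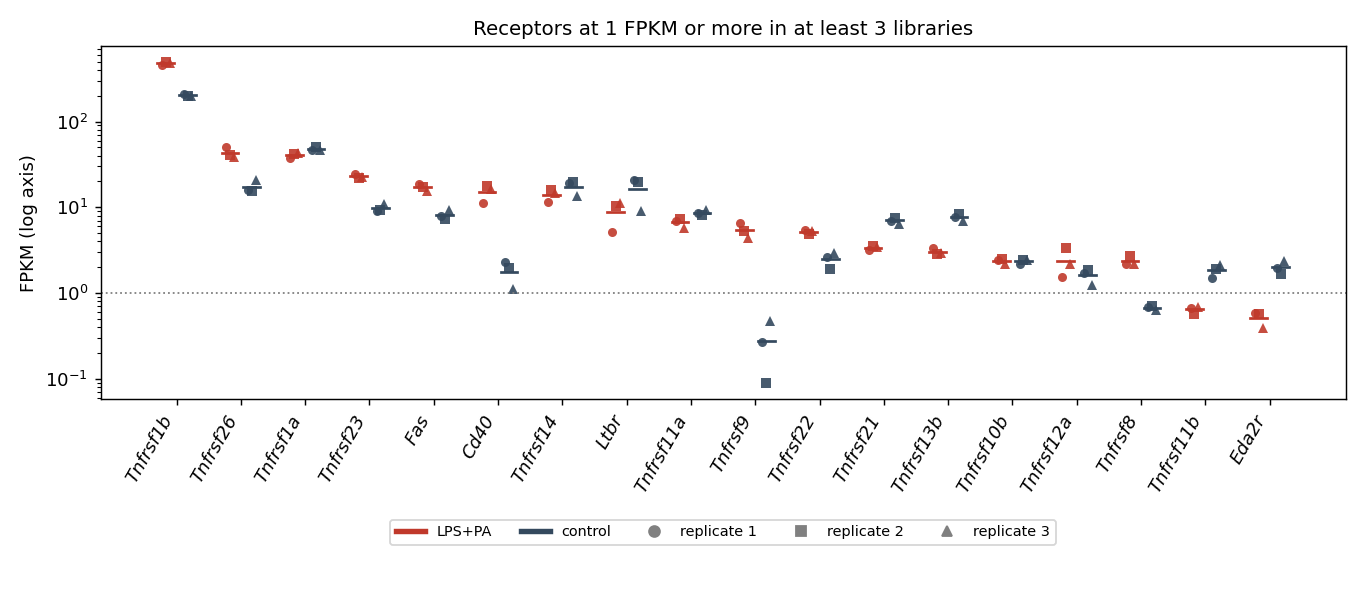
FPKM of the 18 tested receptors in each library on a log axis, ordered by the mean in LPS+PA, with LPS+PA left of control, symbols for replicates 1 to 3, bars at the mean and a dotted line at 1 FPKM. Tnfrsf1b lies far above all others in both groups, and the circle of LPS+PA (replicate 1) and the triangle of control (replicate 3) lie low for Ltbr and Tnfrsf14.

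Known ligand and receptor pairs were set side by side. Of 25 pairs, 7 had both members tested. Both rose in Tnf with Tnfrsf1b and in Tnfsf9 with Tnfrsf9. In Tnfsf10 with Tnfrsf11b, to which TRAIL can also bind, the ligand rose and the receptor fell. Tnfsf10 passed the filter through the treated group alone and Tnfrsf11b through the control group alone, so the filter set this opposite movement. Tnfrsf9, Tnfsf15 and Ltb also passed through 1 group alone, so the filter set their directions too. Tnf rose beside Tnfrsf1a at -0.25, a fall that did not hold under several settings and turned to 0.21 with the GC and length dependence taken out. In Tnfsf10 with Tnfrsf10b, Ltb with Ltbr and Tnfsf12 with Tnfrsf12a only the ligand passed the test, and whether ligand and receptor differed in their change was not tested. Tnfsf4 and Tnfsf15 rose while their receptors, Tnfrsf4 and Tnfrsf25, stayed under 1 FPKM in every library. The level of Tnfrsf11a was 10.3, 12.8 and 8.43 times that of its ligand's decoy Tnfrsf11b in LPS+PA 1 to 3, and 5.64, 4.28 and 4.34 times in control 1 to 3.

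**Figure D4:**
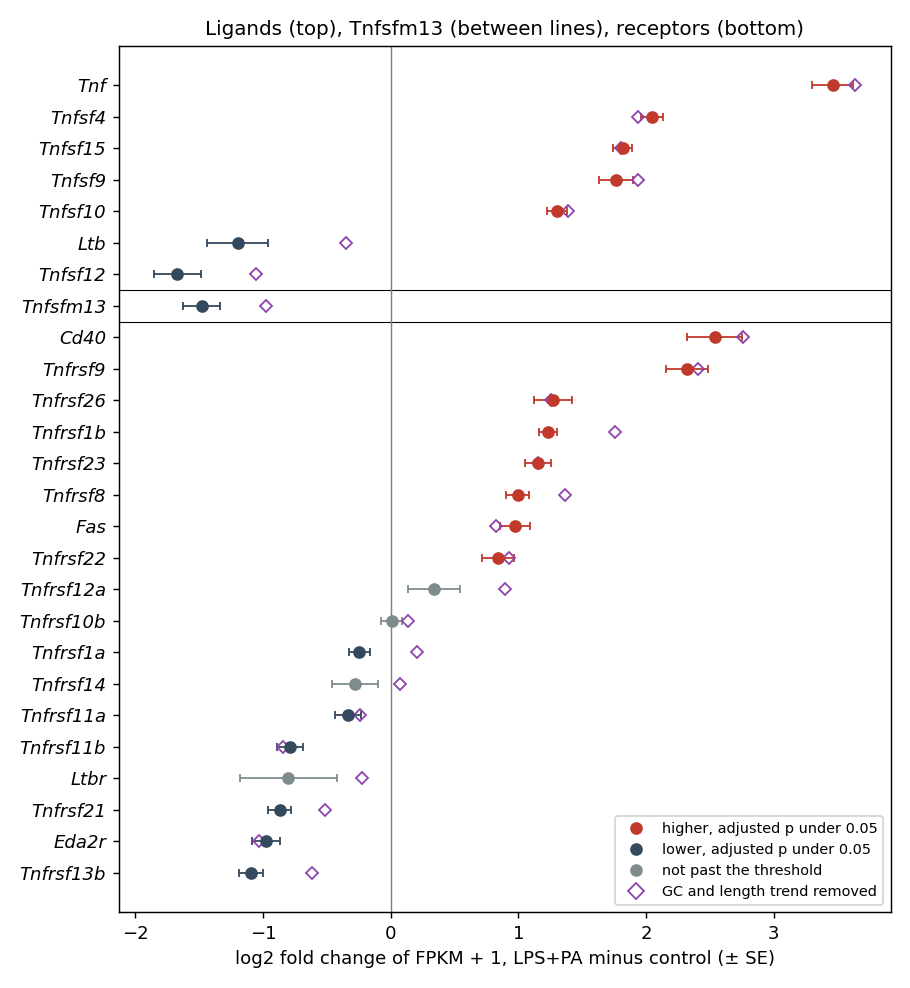
Log2 fold change of FPKM + 1, LPS+PA minus control, with its SE, for 26 tested members, with ligands above, Tnfsfm13 between the lines and receptors below; filled points are the tested values, coloured by direction where the adjusted p is under 0.05 and grey otherwise, and open diamonds are the values with the GC and length dependence of each library taken out. The diamonds lie nearer 0 for Ltb, Tnfsf12 and Tnfrsf13b, and on the other side of 0 for Tnfrsf1a and Tnfrsf14.

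Genes that carry the signal from these receptors were described by lists of textbook members, whose counts stand beside 22.2% higher, 32.9% lower and a median of -0.11 over all genes tested. Of 12 adaptors and ubiquitin ligases, 6 rose and 2 fell, with a median log2 fold change of 0.34. With the GC and length dependence taken out 8 rose and 1 fell, with a median of 0.53, and after quantile normalization 8 rose and 1 fell, with a median of 0.48. Traf1, an adaptor that NF-kB induces, rose to 18.8 ± 2.89 FPKM in LPS+PA libraries, against 1.83 ± 0.184 FPKM in control libraries (log2 fold change 2.80). Birc3, the ubiquitin ligase cIAP2, rose to 51.3 ± 4.82 FPKM in LPS+PA libraries, against 12.2 ± 1.06 FPKM in control libraries (1.99). Traf3ip3 fell to 0.813 ± 0.114 FPKM in LPS+PA libraries, against 2.68 ± 0.448 FPKM in control libraries (-1.02), and Tradd, the adaptor of TNFR1, fell to 1.03 ± 0.129 FPKM in LPS+PA libraries, against 1.96 ± 0.514 FPKM in control libraries (-0.53; SD, n = 3 per group here and below).

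Of 17 genes of the NF-kB arms 7 rose and 2 fell, with a median of 0.32, beside 22.2% higher and 32.9% lower over all genes. Nfkbie, an inhibitor of NF-kB, rose to 12.9 ± 0.854 FPKM in LPS+PA libraries, against 3.00 ± 0.455 FPKM in control libraries (1.80), and the inhibitor Nfkbia to 38.3 ± 9.04 FPKM in LPS+PA libraries, against 15.7 ± 4.20 FPKM in control libraries (1.25). Map3k14, the kinase NIK of the noncanonical arm used by Cd40 and Ltbr, fell to 1.42 ± 0.452 FPKM in LPS+PA libraries, against 4.58 ± 1.86 FPKM in control libraries (-1.16), and Tab1, a partner of the kinase TAK1, to 1.21 ± 0.280 FPKM in LPS+PA libraries, against 3.40 ± 1.54 FPKM in control libraries (-0.93). Control 3 stood near the treated libraries for both. It was at 2.52 FPKM for Map3k14, beside 1.76 FPKM in LPS+PA 2, and at 1.62 FPKM for Tab1, beside 1.46 FPKM in LPS+PA 3. Without LPS+PA 1 and control 3, 11 of this list rose and 4 fell, and with the GC and length dependence taken out 10 rose and 2 fell, with a median of 0.54.

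In the death arm 6 of 12 genes rose and 1 fell, with a median of 0.31, beside 22.2% higher and 32.9% lower over all genes. Mlkl, which forms the pores of necroptosis, rose to 78.0 ± 7.05 FPKM in LPS+PA libraries, against 9.15 ± 0.753 FPKM in control libraries (2.96). Cflar, the inhibitor of caspase-8 known as c-FLIP, rose to 62.4 ± 5.82 FPKM in LPS+PA libraries, against 16.1 ± 0.853 FPKM in control libraries (1.89). Bcl2l1, the survival factor Bcl-xL, fell to 9.05 ± 1.17 FPKM in LPS+PA libraries, against 17.6 ± 6.66 FPKM in control libraries (-0.82, limma adjusted p = 0.0474), and its groups overlapped, with LPS+PA 3 at 10.10 FPKM and control 3 at 10.04 FPKM. With the GC and length dependence taken out, 10 of this list rose and none fell.

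Of 12 genes that edit ubiquitin chains or build linear ones 4 rose and 3 fell, with a median of 0.11, a number of calls near the 55.1% over all genes. Tnfaip3, the ubiquitin editor A20, rose to 46.5 ± 1.35 FPKM in LPS+PA libraries, against 9.25 ± 0.415 FPKM in control libraries (2.21), and Tnip3, an A20-binding protein, to 11.7 ± 1.26 FPKM in LPS+PA libraries, against 4.54 ± 0.616 FPKM in control libraries (1.20). Rbck1 and Sharpin, subunits of the linear ubiquitin ligase, fell by 0.98 and 0.44 on the log2 scale. Control 3 was the lowest control for both. It was at 3.12 FPKM for Rbck1, beside 2.66 FPKM in LPS+PA 3, and at 6.45 FPKM for Sharpin, beside 5.79 FPKM in LPS+PA 2. With the GC and length dependence taken out, 8 of this list rose and 1 fell.

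Further lists held genes that act on the ligands or on Tnf mRNA. Of 8 tested genes of ligand shedding and cleavage 1 rose and 4 fell, with a median of -0.24, beside 22.2% higher and 32.9% lower over all genes. The number that fell was 2 with the GC and length dependence taken out and 6 without LPS+PA 1 and control 3. Sppl2a, a protease that cuts the membrane stub of TNF, rose to 62.9 ± 4.65 FPKM in LPS+PA libraries, against 23.5 ± 1.52 FPKM in control libraries (1.38). Frmd8, which stabilises the sheddase complex, fell to 2.99 ± 0.578 FPKM in LPS+PA libraries, against 8.55 ± 3.51 FPKM in control libraries (-1.19), and Furin, which cuts APRIL and TWEAK, to 3.23 ± 1.06 FPKM in LPS+PA libraries, against 8.83 ± 4.24 FPKM in control libraries (-1.13). The groups of Furin overlapped, with LPS+PA 3 at 4.14 FPKM and control 3 at 4.07 FPKM, against 10.2 and 12.2 FPKM in controls 1 and 2. Adam17, the TNF sheddase, stood at 37.2 ± 1.08 FPKM in LPS+PA libraries and 43.5 ± 1.45 FPKM in control libraries (-0.22, limma adjusted p = 0.0326; named after its values were seen). Of 11 genes that control decay of Tnf mRNA 2 rose and 3 fell, beside 55.1% called over all genes, with a median of -0.16 that turned to 0.11 with the GC and length dependence taken out and to 0.01 after quantile normalization. Mapkapk2, the kinase MK2, rose to 124 ± 6.12 FPKM in LPS+PA libraries, against 67.4 ± 3.66 FPKM in control libraries (0.87), and the RNA-binding protein gene Elavl1 by 0.45, while the decay factors Zfp36l1 and Khsrp fell by 1.33 and 0.74 on the log2 scale. For Khsrp control 3 stood at 7.62 FPKM, beside 7.30 FPKM in LPS+PA 3. Tnfaip3, which rose by 2.21, was counted above with the ubiquitin editors. Of the 4 other tested Tnfaip genes 1 rose and 2 fell, beside 22.2% higher and 32.9% lower over all genes. Tnfaip2 stood at 132 ± 9.35 FPKM in LPS+PA libraries and 84.8 ± 7.04 FPKM in control libraries (0.63), and Tnfaip8l2 and Tnfaip8 fell by 2.23 and 0.26.

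**Figure D5:**
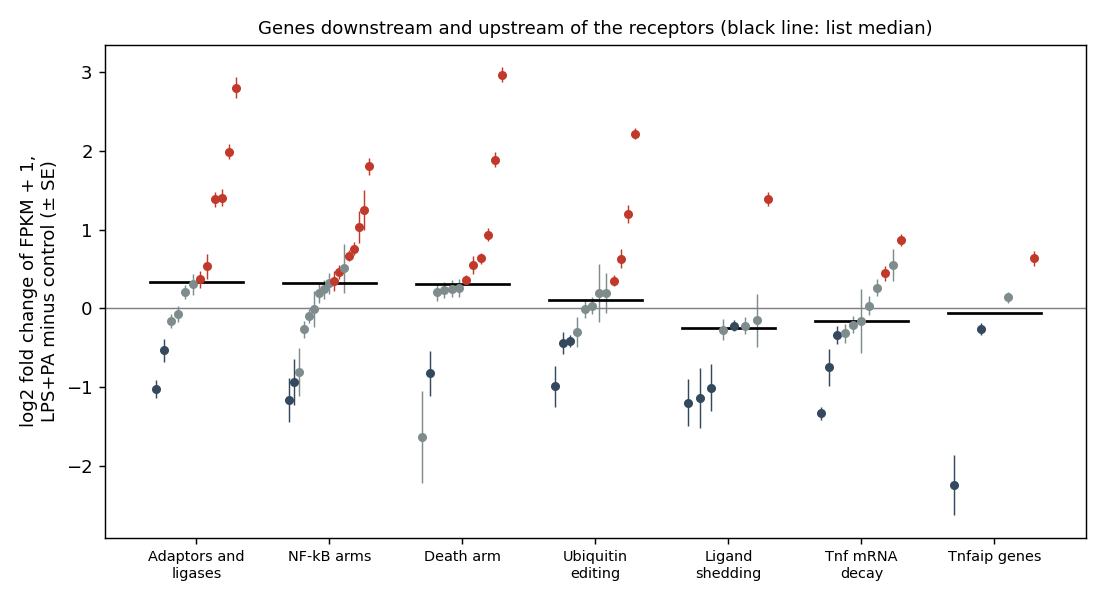
Log2 fold change of FPKM + 1, LPS+PA minus control, with its SE, for each tested gene of 7 lists around the TNF receptors, red where higher and dark where lower at an adjusted p under 0.05, grey otherwise, with a black line at the list's median. The highest points are Mlkl and Traf1, and the lowest called point is Tnfaip8l2. Tnfaip3, which rose, is drawn in the ubiquitin editing list and not among the Tnfaip genes.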

How the data were processed

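RNA was sequenced from 3 LPS+PA and 3 control libraries, grouped by the sample titles. Per the labels' protocols, poly(A) RNA was used, libraries kept strand through dUTP, and read pairs were sequenced on an Illumina NovaSeq. The authors deposited 1 table of 29957 genes with FPKM per library and, per the file headers, a fold change with its log2 value, and a p-value beside a q-value. Tools listed without a role in the submitters' processing notes are StringTie 2.1.6, HISAT2 2.2.1, cutadapt 1.9, edgeR and DESeq2, and the build is mm10. The annotation used is not stated. FPKM is relative to each library's total, so the rise of a few abundant transcripts lowers the rest a little.

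Members were taken by name, and Cd40lg and Tnfrsf13c are not analysed here. The 11364 genes that reached 1 FPKM in 3 or more of 6 libraries were tested with limma 3.58.1 in R 4.3.3, with a variance trend, on log2(FPKM + 1), two-sided; p-values were Benjamini-Hochberg adjusted over all of them. This test was checked on simulated data whose noise was drawn independently for each gene. That check does not cover deviations that many genes of a library share. No count model was fitted. Depth was estimated from the steps of low FPKM values (tolerance 0.5%, in genes with 1 transcript) and covers counting error only. Per library 10.6% to 13.2% of the values used lay within that tolerance, so fragment numbers are rough. Coordinates, lengths and GC content come from GENCODE M21 (mm10), where 29871 IDs were found. Every member past the filter is named with all its values. Of each pathway list, the called genes with the 2 largest changes in each direction are named. Members and lists were chosen with earlier results of these data known. Alternatives were another pseudocount, no filter, no variance trend, quantile normalization, a replicate block, a term for 2 library sets, removal of each library's trend on GC content and length (loess), and leaving out libraries. Same-numbered libraries of the 2 groups did not deviate together.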

Additional observations from a re-analysis of the deposited data

How the results depend on the processing

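Of 22 members called, 20 kept their direction and their side of the threshold under all 14 alternatives, and the exceptions were Tnfrsf1a and Tnfrsf11a. Of the 20, Tnfsf15, Tnfsf10, Ltb, Tnfrsf9, Tnfrsf8, Tnfrsf11b and Eda2r passed the filter through 1 group alone. Their groups had to differ, so their steady calls add no support. The number of members called ran from 20 to 25, and of receptors called from 12 to 16. All 7 tested ligands, of which 4 were at 1 FPKM or more in all 6 libraries, were called under every alternative with the filter. Without a filter 11 of 16 were called, since more members then entered the fit. Leaving out 1 library at a time gave 20 to 23 members, 12 to 15 receptors, 7 ligands each time and 4772 to 7051 of all genes. Leaving out both LPS+PA 1 and control 3, chosen after seeing the data, gave 23 members. Of all genes, 2523 were higher and 3736 lower, against 3014 and 2922 after quantile normalization and 3582 and 3182 with the GC and length dependence taken out. Each of these 2 settings moved the median of all genes to 0.01, against -0.11 before. Taking out the GC and length dependence also turned Tnfrsf1a to 0.209 and Tnfrsf14 to 0.0748. Tnfrsf10b, at 0.00693, turned to -0.00821, -0.0181 and -0.0366 without LPS+PA 1, LPS+PA 2 and control 1, within a range of -0.0366 to 0.0471 over libraries left out. The cause was not tested. With a pseudocount of 0.1 low genes changed more, for example Tnfrsf9 by 3.99 and Ltb by -2.30, by construction. Replicate numbers did not pair the libraries (correlations of deviations of -0.47, 0.09 and -0.59), and with the replicate block 20 members and 4738 of all genes were called. The block ended the calls of Tnfrsf1a (limma adjusted p = 0.126) and Tnfrsf11a (limma adjusted p = 0.105). The 13 members under 1 FPKM in every library rest on at most about 39.2 fragments in any library, which limits the precision of their values.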
